A study of Mus musculus with 2 samples.

Results

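The genes described here are 10 genes of costimulation, immune checkpoints and cell adhesion out of the 55450 genes in the tables that matched the annotation: Cd40, Cd80, Cd86, Cd83, Cd274, Pdcd1lg2, Icosl, Tnfsf9, Tnfsf15 and Icam1. They were taken by gene symbol, and each symbol matched 1 gene, with 27 annotated transcripts in all. The set is called ligands for short, although Cd40 encodes a receptor. The data are total RNA sequencing, after removal of ribosomal RNA, of 2 libraries from bone marrow-derived macrophages of mouse strain C57BL/6J. Both cultures had received Lipid A, the part of bacterial lipopolysaccharide sensed through Tlr4, at 100 ng/ml for 120 min. RNA came from the nucleoplasm, the soluble part of the nucleus, with an input of 1 µg for replicate 1 and 500 ng for replicate 2, so input and replicate cannot be told apart. The labels name the same donor entry for both libraries, so the spread between them may be technical in part. There was no untreated culture among the 2 libraries, so the values below are levels, nothing can be said of induction, and groups could not be tested.

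A T cell that meets its antigen on a macrophage or dendritic cell is driven or held back by further signals from the surface of that cell. Cd80 and Cd86 bind the T cell receptors CD28 (activating) and CTLA-4 (inhibiting), Icosl binds ICOS, and Cd274 (PD-L1) and Pdcd1lg2 (PD-L2) bind the inhibitory receptor PD-1. Tnfsf9 (4-1BB ligand) and Tnfsf15 (TL1A) are tumour necrosis factor family ligands, Cd40 is a receptor of that family engaged by CD40 ligand on T cells, Cd83 is a surface marker of activated antigen-presenting cells, and Icam1 is the adhesion molecule bound by the integrin LFA-1.

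Much of the nuclear RNA of several of these genes was assigned to annotated transcripts that keep all or part of an intron or leave out an exon. The 4 stretches of sequence below show such kept or skipped parts in Cd83, Cd40 and Icam1, not every difference between the transcripts. They are printed from the GENCODE M21 transcripts on mm10, all on the plus strand, with the kept intron or skipped exon in capitals and the neighbouring exon bases in lower case. Cd83 intron 1 (chr13:43785251-43785345) is 95 bases long, begins with GT, ends with AG and is kept in transcript Cd83-202. Cd40 exon 7 (chr2:165069629-165069715) is 87 bases long, a multiple of 3, encodes the membrane-spanning stretch of the receptor and is absent from transcript Cd40-202. Cd40 intron 7 (chr2:165069716-165069816), the 101 bases after that exon, is kept in Cd40-207. The last line shows the start of Icam1 intron 2 (chr9:21019180-21019219), where transcript Icam1-202 runs on past the end of exon 2.
Cd83 intron 1: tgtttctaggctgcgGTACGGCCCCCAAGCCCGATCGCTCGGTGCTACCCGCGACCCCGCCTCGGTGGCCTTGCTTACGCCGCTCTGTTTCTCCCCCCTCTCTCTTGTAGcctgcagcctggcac
Cd40 exon 7: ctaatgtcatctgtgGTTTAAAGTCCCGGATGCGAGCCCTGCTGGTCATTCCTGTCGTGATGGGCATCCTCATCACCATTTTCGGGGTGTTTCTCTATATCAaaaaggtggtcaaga
Cd40 intron 7: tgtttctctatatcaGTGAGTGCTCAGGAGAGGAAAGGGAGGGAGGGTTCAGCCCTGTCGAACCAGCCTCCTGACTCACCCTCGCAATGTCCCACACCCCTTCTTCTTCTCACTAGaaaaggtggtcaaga
Icam1 intron 2 start: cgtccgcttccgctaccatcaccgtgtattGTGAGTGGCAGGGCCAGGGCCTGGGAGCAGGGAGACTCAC

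Depth was 14374739 estimated counts for replicate 1 and 16372797 for replicate 2. Mitochondrial genes took 0.424% and 8.70% of counts, and nuclear protein-coding genes took 29.7% and 20.8% of TPM (an abundance per transcript length, scaled to the same total in each library). The TPM of most genes was therefore lower in replicate 2, by a log2 of -0.58 for the median of the 12647 genes whose mean TPM was at least 1. All 8 macrophage markers were detected, led by Lyz2 at 403 and 1316 TPM. Among 10 dendritic cell markers, 2 were detected, led by Cd74 (38 and 54.6 TPM), with Cd209a at 0 counts in both and summed levels of 59.3 and 71.3 TPM. The B cell list (1 of 7 detected, led by Cd22 at 2.13 and 2.4 TPM) summed to 3.97 and 2.86 TPM, and the T cell list (2 of 8, led by Cd4 at 4.17 and 14.5 TPM) to 13.8 and 20.1 TPM, with Cd3e and Cd3g at 0. Endothelial markers (2 of 7, led by Vwf at 26.4 and 14.5 TPM, with Emcn at 0) summed to 35.7 and 20.0 TPM. Stromal markers (0 of 8 in both, led by Col1a1 at 22.9 and 0.07 TPM, with Col3a1 at 0 in replicate 2) summed to 67.8 and 0.25 TPM. The part of other cells in the levels below was not tested, and in such bulk RNA fewer cells of a type and less RNA per cell cannot be told apart.

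RNA of 9 of the 10 genes was well above the limit of detection in both libraries, and Pdcd1lg2 was the exception. Detection means 1 TPM or more in both libraries, which 40.5% of 21938 nuclear protein-coding genes reached. The median over the 10 genes was 99.4 TPM (117 in replicate 1 and 82.0 in replicate 2), against 9.06 TPM over detected protein-coding genes. Together the 10 genes held 59896 counts in replicate 1 and 80126 in replicate 2, which is 0.417% and 0.489% of each library. Cd274 and Icam1 alone supplied 72.0% and 75.9% of these counts.

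**Figure D1:**
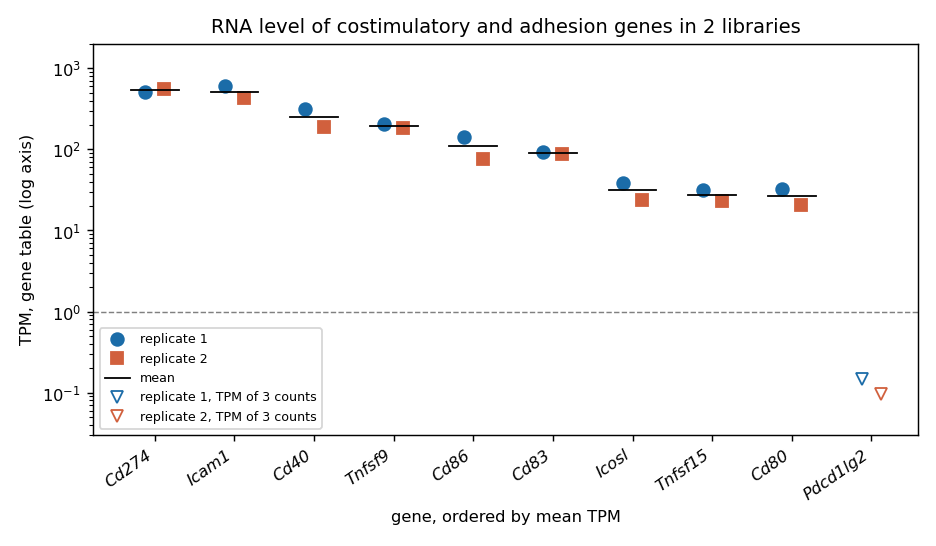
TPM of each gene in the gene tables (vertical log axis) for replicate 1 (circles) and replicate 2 (squares), with the mean as a bar. The 9 detected genes lie between 20.5 and 605 TPM, above the dashed line at 1 TPM, while Pdcd1lg2 is drawn as open triangles at the TPM that 3 counts would give.

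Among the ligands of CD28 and ICOS, Cd86 stood highest. Cd86 (chromosome 16, 36603869 to 36666081 in mm10, minus strand) had 141 TPM in replicate 1 and 76.3 TPM in replicate 2, a mean of 109 ± 46.0 (SD, n = 2, here and below), from 2555 and 2483 counts. Cd80 (chromosome 16, 38455561 to 38496335, plus strand), which binds the same 2 T cell receptors, had 33.0 and 20.5 TPM, a mean of 26.7 ± 8.82, from 888 and 883 counts. The lower Cd86 library stood above the higher Cd80 library, so the pair did not overlap. Icosl (chromosome 10, 78069302 to 78083913, plus strand) had 38.7 and 23.7 TPM, a mean of 31.2 ± 10.6, from 1254 and 1106 counts. Its range overlapped that of Cd80. Each of these 3 genes was lower in replicate 2 on the TPM scale, as was the median gene.

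The ligands of PD-1 stood at opposite ends of the set. Cd274 (chromosome 19, 29367455 to 29388095, plus strand) had 513 TPM in replicate 1 and 560 TPM in replicate 2, a mean of 537 ± 33.3, the highest of the 10. It ranked 52nd and 31st among protein-coding genes. Its counts were 24604 and 40527, or 0.171% (95% Wilson interval 0.169 to 0.173) and 0.248% (0.2451 to 0.2499) of each library, where intervals cover counting error only. Pdcd1lg2 starts 22.8 kb downstream of the end of Cd274 (29410919 to 29471161, same strand) and had 1 count in replicate 1 and 0 in replicate 2. A count of 0 allows 3 counts, which for this gene is 0.0959 TPM in replicate 2. By the exact Poisson limit for 0 counts, Cd274 was at least 4749.8-fold higher per length in replicate 2. In replicate 1 it was 10349-fold higher, and the single count gives an exact Poisson interval of 1857 to 408754. The read-based table, a second estimate made by the authors from the read files, gave Pdcd1lg2 6 and 3 counts (0.146 and 0.0441 TPM) and Cd274 301 and 343 TPM. Adjacent genes with the same receptor thus differed by over 3 orders of magnitude in nuclear RNA.

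Part of the Cd274 reads has an uncertain strand of origin. AC119228.1, annotated as an antisense gene, lies wholly within the span of Cd274 on the other strand (29373417 to 29384471). It was given 18982 and 20406 counts, or 365 and 244 TPM, below Cd274 in both libraries. Of its 4725 exon bases, 4214 lie in introns of Cd274 and 511 in Cd274 exons, the latter out of 3622 exon bases of Cd274. Whether counting used strand is not given in the sources used here. Without strand, reads of the antisense gene and unspliced Cd274 RNA cannot be told apart. Cd274 has 1 annotated transcript, and no model of it keeps an intron.

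The tumour necrosis factor family members spread over about 1 order of magnitude. Cd40 (chromosome 2, 165055627 to 165072948, plus strand) had 317 TPM in replicate 1 and 187 TPM in replicate 2, a mean of 252 ± 91.4, from 5020 and 5405 counts. Tnfsf9 (chromosome 17, 57105325 to 57107757, plus strand) had 204 and 182 TPM, a mean of 193 ± 15.9, from 3085 and 4142 counts. The ranges of Cd40 and Tnfsf9 overlapped, although Cd40 was the higher of the 2 in each library. The Cd40 sum includes 92.7 and 34.0 TPM of Cd40-205, a transcript that runs 131 bases past exon 6 into the intron and stops there. The order of Cd40 and Tnfsf9 thus depends on which Cd40 transcripts are counted. Tnfsf15 (chromosome 4, 63727084 to 63745113, minus strand) had 31.3 and 23.2 TPM, a mean of 27.2 ± 5.75, from 1380 and 1541 counts. Tnfsf9 stood well above Tnfsf15 in both libraries, with no overlap.

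By TPM summed over all transcripts of a gene, Icam1 was about as abundant as Cd274, and Cd83 stood in the middle of the set. Icam1 (chromosome 9, 21015985 to 21028817, plus strand) had 605 TPM in replicate 1 and 427 TPM in replicate 2, a mean of 516 ± 126, from 18512 and 20318 counts. It led the set in replicate 1 and came after Cd274 in replicate 2. Cd83 (chromosome 13, 43784775 to 43803132, plus strand) had 92.5 and 87.7 TPM, a mean of 90.1 ± 3.35, from 2597 and 3722 counts. Its range lay within that of Cd86. Both sums include transcripts that keep all or part of an intron. The coding transcript alone had 339 and 327 TPM for Icam1, below Cd274 in both libraries. For Cd83 it had 15.7 and 15.6 TPM, below Cd80 in both.

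Ordered by mean TPM, the genes ran Cd274, Icam1, Cd40, Tnfsf9, Cd86, Cd83, Icosl, Tnfsf15, Cd80 and Pdcd1lg2. Of the 9 neighbouring pairs, 5 had overlapping ranges over the 2 libraries: Cd274 with Icam1, Cd40 with Tnfsf9, Cd86 with Cd83, Icosl with Tnfsf15, and Tnfsf15 with Cd80. The steps from Icam1 to Cd40 (1.91-fold and 2.28-fold in replicates 1 and 2), from Tnfsf9 to Cd86 (1.44-fold and 2.38-fold), from Cd83 to Icosl (2.39-fold and 3.70-fold) and from Cd80 to Pdcd1lg2 exceeded the spread. The read-based table moved Cd40 to the top of the set. It gave Cd40 818 and 395 TPM, which is 2.58 and 2.11 times the gene table, whereas the median protein-coding gene at 5 TPM or more was at 0.890 and 0.840 times. The 95th percentiles of that ratio were 2.06 and 1.61, so Cd40 lay beyond them in both libraries. Cd274, at 0.587 and 0.613 times, lay near the 5th percentiles of 0.591 and 0.610. In the read-based table Tnfsf9 (124 and 126 TPM) and Cd86 (127 and 61.9 TPM) overlapped. Cd80 (mean 26.2 TPM) stood above Tnfsf15 (mean 18.1 TPM) there without overlap, the reverse of the order above. Icam1 (mean 328 TPM) came just above Cd274 (mean 322 TPM), with overlapping ranges. Cd86 with Cd83, and Icosl with Tnfsf15, did not overlap in the read-based table. The place of Cd40, the order of Tnfsf15 and Cd80, and the step from Tnfsf9 to Cd86 therefore depend on the table. So do the overlaps of Cd86 with Cd83 and of Icosl with Tnfsf15. The order also rests on sums over all transcripts of a gene, and coding transcripts alone were not ranked.

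The 9 detected genes were also compared between the replicates, relative to the median gene. The ratio used is the log2 of TPM + 1 in replicate 2 over replicate 1, minus the median over the same 12647 genes. It ran from -0.30 for Cd86 to 0.71 for Cd274, with a median of 0.08. None of the 9 differed by 2-fold or more, against 10.3% of 12647 genes, so this count is near the background. Of the 9, 5 were above 0 and 4 below, against 50% of genes by construction. Cd274, Cd83 (0.51) and Tnfsf9 (0.42) were relatively higher in replicate 2 under each setting tried. Cd86 and Icosl (-0.10) kept a negative sign under each setting, but both came close to 0 under some. The values were 0.16 for Tnfsf15, 0.08 for Icam1, -0.17 for Cd40 and -0.08 for Cd80, and the sign of each of these 4 turned under at least 1 other setting or table.

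**Figure D2:**
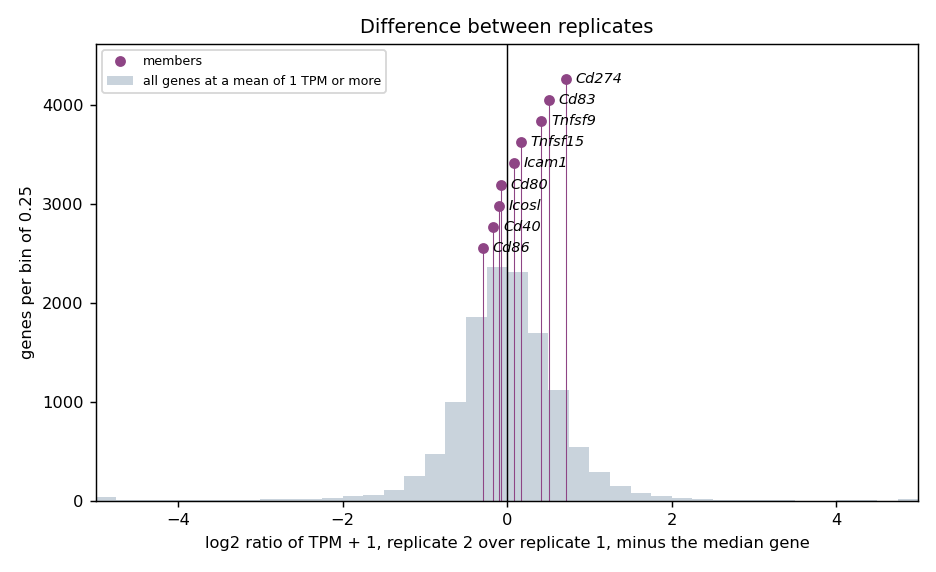
Histogram of the relative log2 ratio of replicate 2 over replicate 1 for the 12647 genes (grey, bins of 0.25, with genes beyond -5 or 5 counted in the end bins), and the 9 detected genes as labelled points. The points run from -0.30 to 0.71, and their height only separates the labels.

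The genes differed in how their RNA divided among annotated transcripts. Of the 10 genes, 5 have a transcript without an annotated coding sequence, namely Cd40, Cd83, Cd86, Icam1 and Icosl. Across the 4580 protein-coding genes that have such a transcript and reached 5 TPM in each library, these transcripts held a median of 42.6% of the gene's TPM in replicate 1 and 35.3% in replicate 2. Reads on an intron are assigned to a transcript that keeps it whether they come from a finished RNA or from RNA not yet spliced, so these cannot be told apart here. A share of 50% or more in both libraries was found in 2 of the 5 genes (Cd83 and Icosl) and in 27.2% of the 4580.

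**Figure D3:**
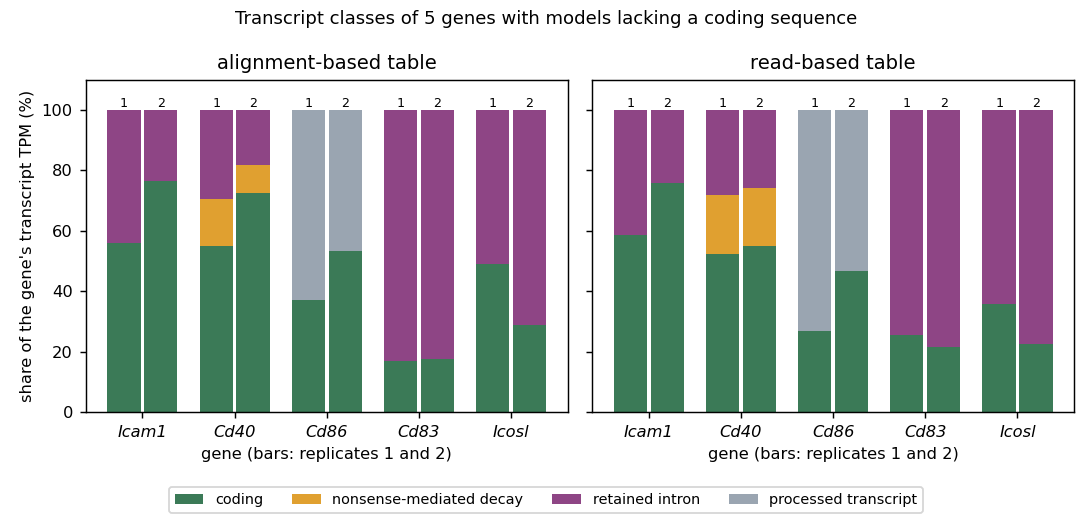
Share of each gene's transcript TPM by annotated class (stacked bars, in percent) in replicates 1 and 2, in the alignment-based table (left) and the read-based table (right). Most Cd83 TPM is assigned to the retained-intron transcript in all 4 bars. The coding share of Icam1 is 56.0% and 76.6% in the alignment-based table and 58.6% and 76.0% in the read-based table.

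Cd83 had the most extreme division of the 5. The transcript with intron 1 kept, Cd83-202, held 83.04% of Cd83 TPM in replicate 1 and 82.3% in replicate 2, a mean of 82.6 ± 0.557%, from 2098 and 2975 counts. The coding transcript Cd83-201 had 499 and 747 counts. This share exceeded that of 97.4% of the 4580 genes. The read-based table gave 74.5% and 78.5%, so the 2 libraries and both tables placed most Cd83 RNA on Cd83-202. The 2 transcripts differ by the 95 bases printed above and by 410 bases at the 5′ end that only Cd83-201 has, and the tables do not show which of these decided the assignment.

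Icam1 divided differently in the 2 libraries. Icam1-202 stops 1825 bases into intron 2, which is 6364 bases long. It held 44.0% of Icam1 TPM in replicate 1 and 23.4% in replicate 2, from 7448 and 4223 counts. The coding transcript Icam1-201 had 339 and 327 TPM, while Icam1-202 had 266 and 100 TPM. Relative to the median gene, the coding transcript was higher in replicate 2 by a log2 of 0.53 and Icam1-202 lower (-0.82). The level of the whole gene, which sits at 0.08, is thus the sum of parts that went in opposite directions. The read-based table gave Icam1-202 shares of 41.4% and 24.0%.

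Cd86 RNA also leaned to the coding transcript in replicate 2. Cd86-201, the coding transcript, held 37.2% and 53.5% of TPM, from 1720 and 2012 counts. Cd86-203, a processed transcript made of the first exon and an 841-base exon inside the first intron of Cd86-201, held 46.5% and 30.02%, from 701 and 369 counts. Of its 975 bases, 845 lie outside the exons of the coding transcript. By counts rather than TPM, the coding transcript held 67.3% and 81.0%, since division by length lifts short transcripts. The other 2 processed transcripts held 12.3% and 7.92% (Cd86-202) and 3.99% and 8.55% (Cd86-204). In the read-based table Cd86-201 held 26.9% and 46.9% of TPM, a shift in the same direction. Transcripts without coding sequence held the larger part there in both libraries (73.1% and 53.1%).

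Icosl went the other way. Its 2 retained-intron transcripts together held 50.9% of TPM in replicate 1 and 71.2% in replicate 2. Icosl-204, which starts inside intron 3, held 35.2% and 48.7%, from 432 and 554 counts, and Icosl-202 held 15.8% and 22.6%, from 135 and 179 counts. Of the 2475 bases of Icosl-204, 368 lie outside the exons of the coding transcripts, and what decided its assignment was not tested. The coding transcript Icosl-201 had 679 and 370 counts, and the other coding transcript, Icosl-203, had 8 and 4. In the read-based table the retained-intron share was 64.3% and 77.5%, in the same direction. That table gave Icosl-203 308 and 247 counts, or 20.2% and 16.2% of TPM, above Icosl-201 at 15.6% and 6.30%.

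Across the 5 genes, the share without coding sequence was lower in replicate 2 for 4, which were Icam1, Cd86, Cd40 and, by under 1 percentage point, Cd83. This held for 71.2% of the 4580 genes, whose median difference was -4.60 percentage points, so 4 of 5 is near the background. In the read-based table it was lower in 3 of the 5 (75.96% of the genes there), as Cd83 turned. The mitochondrial share of counts, 0.424% and 8.70%, differed between the same 2 libraries, and its part in these shares was not tested.

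Cd40 has 7 annotated transcripts, and the tables disagreed on them. In the alignment-based table Cd40-202, which lacks the exon for the membrane-spanning stretch printed above, had 107 TPM in replicate 1 and 98.0 TPM in replicate 2, from 2085 and 2870 counts. The full-length coding transcript Cd40-201 had 51.7 and 35.3 TPM, from 2017 and 2077 counts. Cd40-202 thus held 33.9% and 52.3% of Cd40 TPM and Cd40-201 held 16.3% and 18.8%. By counts the 2 were closer, at 41.5% against 40.2% in replicate 1 and 53.1% against 38.4% in replicate 2. Cd40-201 also extends 1294 bases further at the 3′ end, so the assignment need not rest on reads across the skipped exon. A level of RNA without the exon is therefore not established by these values.

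The remaining Cd40 transcripts were shorter, and all but Cd40-203 carry bases outside the exons of Cd40-201. The retained-intron transcript Cd40-205 held 29.3% and 18.1% of TPM from 429 and 237 counts, as it is 545 bases long. Cd40-207, the nonsense-mediated decay transcript with intron 7 kept, held 9.44% and 5.26%, from 356 and 177 counts. Cd40-206, also of the decay class, held 6.20% and 4.23%, and the coding transcript Cd40-203 held 4.69% and 1.12%. The read-based table put 33.1% and 27.0% of Cd40 TPM on Cd40-204, a 391-base coding model of 4 exons that had 1 count in each library of the alignment-based table. It gave Cd40-202 6.64% and 15.004%. In both tables Cd40-202 stood above Cd40-201 in TPM in each library. By read-based counts, Cd40-201 led in replicate 1 (2966 against 2093) and Cd40-202 in replicate 2 (3888 against 3356).

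**Figure D4:**
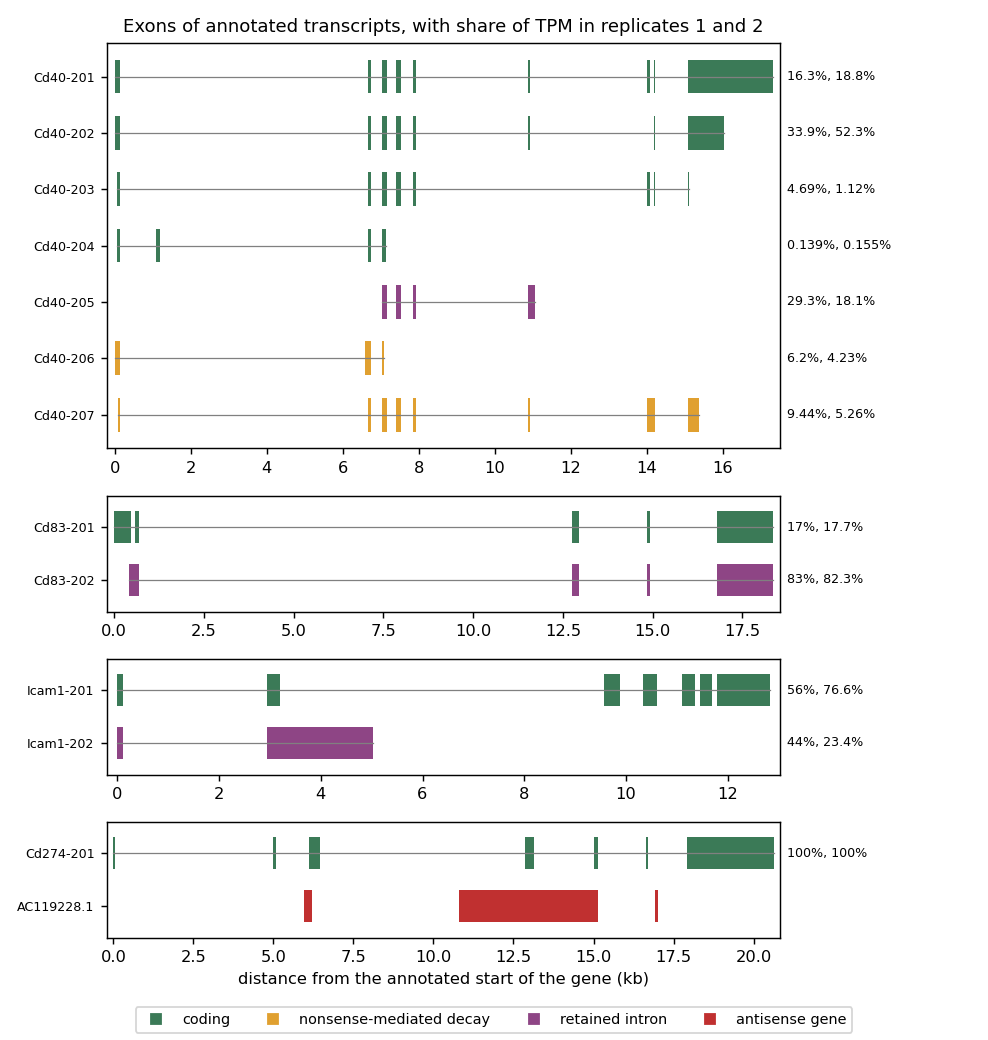
Exons (boxes) and introns (lines) of the annotated transcripts of Cd40, Cd83, Icam1 and Cd274 against distance from the start of the gene in kb, coloured by class, with the share of TPM in replicates 1 and 2 at the right. The boxes of AC119228.1 show its exons, joined over its transcripts, within the span of Cd274; Cd83-202 joins the first 2 exons of Cd83-201, and Icam1-202 ends inside intron 2.

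Cd80 has 3 coding transcripts, which differ mainly at their ends. Cd80-201 held 70.7% of Cd80 TPM in replicate 1 and 48.4% in replicate 2, and Cd80-202, which starts 3372 bases upstream and has another last exon of 1850 bases, held 29.2% and 42.8%. Each has 918 coding bases. Cd80-203, which skips a 282-base exon, had 0 and 21 counts. In the read-based table Cd80-202 led in replicate 2 (53.8% against 39.1%) and Cd80-201 in replicate 1 (58.9% against 30.7%). By counts, Cd80-202 led in replicate 2 in both tables (550 against 312, and 1673 against 618 in the read-based table). In replicate 1 Cd80-201 led by counts in the alignment-based table (487 against 401) but not in the read-based table (733 against 766). The leading transcript is thus not settled in either library. Tnfsf9, Tnfsf15 and Cd274 have 1 annotated transcript each, and Pdcd1lg2 has too few counts to divide.

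Other genes of the same pathways give the surroundings of these levels. Of 10 other B7 family and checkpoint ligand genes, 7 were detected in both libraries, with a median of 19.9 TPM. The highest were Lgals9, encoding galectin-9, at 116 and 100 TPM (108 ± 11.0), Cd47, encoding the signal that restrains phagocytosis, at 94.0 and 76.3 TPM (85.2 ± 12.5), and Pvr at 87.5 and 54.7 TPM (71.1 ± 23.2), while Vtcn1 and Btn2a2 had 0 counts in both. Cd274 thus stood above every gene of that list. Of 15 other tumour necrosis factor family ligand genes, 7 were detected, with a median of 1.65 TPM. Tnf itself had 399 and 267 TPM (333 ± 93.3), followed by Tnfsf12 at 13.9 and 13.1 TPM (13.5 ± 0.552) and Tnfsf10 at 7.93 and 7.35 TPM (7.64 ± 0.410). Cd40lg and Tnfsf11 were at 0 counts. Tnfsf9 and Tnfsf15 therefore came next after Tnf in this family in both libraries.

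Adhesion genes other than Icam1 were detected for 12 of 17, with a median of 16.1 TPM. Cd44, the hyaluronan receptor, had 641 and 372 TPM (507 ± 190), a range that overlapped that of Icam1, followed by Alcam at 338 and 220 TPM (279 ± 83.4) and the integrin gene Itga4 at 178 and 112 TPM (145 ± 46.5). Icam4, which lies 555 bases downstream of Icam1 on the same strand, had 0 counts in both libraries. Of 8 genes for the receptors that bind these molecules on T cells, 3 were detected. They were Cd28 at 12.2 and 40.7 TPM (26.5 ± 20.1), the LFA-1 subunit gene Itgal at 20.5 and 6.23 TPM (13.4 ± 10.1) and Tnfrsf9 at 3.47 and 1.83 TPM (2.65 ± 1.16). Cd40lg, Ctla4 and Pdcd1 had 0 counts in both. Relative to the median gene, Cd28 was higher in replicate 2 by a log2 of 2.24 and Itgal lower (-0.99).

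A list of 9 genes held Traf adaptors that signal from receptors such as Cd40, Cmtm6 and Cmtm4, the membrane ubiquitin ligases Marchf1 and Marchf8, and Rgmb, which encodes a binding partner of PD-L2. All 9 were detected, with a median of 12.1 TPM. Cmtm6, which keeps PD-L1 at the plasma membrane, had 37.2 and 27.6 TPM (32.4 ± 6.77). The signalling adaptor genes Traf2, at 21.4 and 10.01 TPM (15.7 ± 8.08), and Traf6, at 17.6 and 12.1 TPM (14.9 ± 3.85), followed, and Cmtm4 was lowest at 1.86 and 1.38 TPM (1.62 ± 0.339). None of the 9 reached the level of Cd40 or Cd274.

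By distance between the log2 TPM values of the 2 libraries, the genes closest to Cd274 among 6778 protein-coding genes were the chemokine gene Ccl4 (567 and 530 TPM, distance 0.17) and the ferritin gene Ftl1 (574 and 623 TPM, 0.22). Those closest to Icam1 were Cmpk2 (633 and 491 TPM, 0.21) and Cd44 (0.21), and those closest to Cd40 were Fnbp4 (334 and 185 TPM, 0.08) and Slc25a37 (320 and 199 TPM, 0.09). With 2 libraries of 1 group, this says only that the levels were alike.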

How the data were processed

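Ribosomal RNA-depleted RNA of the nucleoplasmic fraction was sequenced in 2 libraries of 1 group. Per library, the authors deposited values per gene and per transcript from reads aligned to the transcriptome, and values per transcript from the reads themselves (the read-based table), on mm10 with annotation M21, per the labels' accompanying notes. The sources used here do not name aligner, quantification tools or use of strand. The deposited expected counts are estimates and can be fractions of a count, per the file headers. The deposited TPM values are scaled per effective length to one total, and the deposited FPKM values, per the file headers, served as an alternative. TPM of a short transcript rests on few counts.

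Gene totals were 14374739 and 16372797 counts, and read-based totals 21039284 and 27514005. Transcript shares are percentages of a gene's TPM, read-based TPM being summed per gene. Ratios used a pseudocount of 1 and genes whose mean TPM was at least 1. They were tried on simulated counts with planted changes, drawn for both libraries from the same mean counts and gene lengths. That check does not cover the differences in composition or length between the real libraries. Where no count was seen, up to 3 were allowed for. Rounded counts gave the scale factors of edgeR 4.0.16 and DESeq2 1.42.0 (R 4.3.3) for alternatives. Figures were drawn with matplotlib 3.10.9, and other steps ran in Python 3.11.15 with numpy 2.4.6, scipy 1.17.1 and pandas 2.3.3. Of 55536 mouse gene identifiers in the tables, 55450 matched GENCODE M21, and the rest stayed out of ratios and ranks.

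The members and lists were chosen with earlier results of these data known. All 10 members are named, with the 3 highest and the lowest gene of each of 5 related lists, the highest of each of 6 marker lists, marker genes at 0, and the 2 closest genes to each of the 3 members with most counts, taken from protein-coding genes that had at least 100 counts in each library. All 107 list entries matched, 2 of them (Marchf1 and Marchf8) by the older symbols of this annotation.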

Additional observations from a re-analysis of the deposited data

How the results depend on the processing

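Detection of 9 of the 10 genes was the same at 5 TPM, at 0.5 TPM, at 1 FPKM and at 1 TPM in the read-based table. The median level of 99.4 TPM lay between 75.1 and 117 under FPKM, the read-based table and leaving out either replicate. It was 393 when TPM was rescaled to nuclear protein-coding genes, by construction of the smaller total. The read-based table moved the mean level by over 1.5 times for Cd274 (322 TPM), Icam1 (328), Cd40 (607), Tnfsf9 (125), Cd83 (55.7) and Tnfsf15 (18.1), and for Pdcd1lg2, which is near 0 in both. In all, 20 of 50 values of single-gene levels moved by more than the spread between replicates. Leaving out a replicate cannot exceed this spread, and rescaling to protein-coding genes moved all 10 genes. These outcomes were set by construction, so the tally does not measure stability. The median relative log2 ratio of 0.08 was -0.25 with a pseudocount of 10 and -0.19 with no filter on low values, where 3 rather than 5 genes stood above 0. With TMM or DESeq2 scaling of counts 7 stood above 0. Among single genes, Cd40 was at 0.15 with TMM and 0.13 with DESeq2 scaling. Cd86 was at -0.0022 with TMM and -0.015 with DESeq2 scaling, and Icosl at -0.018 with a pseudocount of 0.1. Cd80 was at 0.00053 with a pseudocount of 0.1, 0.031 with TMM, 0.018 with DESeq2 scaling and 0.22 in the read-based table. With a pseudocount of 10 and with no filter, Tnfsf15 was at -0.077 and -0.11, and Icam1 at -0.25 and -0.19. The cause was not tested. TMM and DESeq2 scaling use counts, so a change in transcript length does not enter. Of 20 other values of shares without coding sequence, 4 moved by more than the spread between replicates. They were Cd40, Cd86 and Cd83 by share of counts, and Cd83 in the read-based table. The values from leaving out a replicate could not move by this measure, so the tally understates the dependence. No paired analysis was possible because there is 1 group. Pdcd1lg2 is limited by depth.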

Other observations

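Genes that overlap or adjoin the 10 genes were low, apart from 2 at Cd274. Plgrkt starts 64 bases from Cd274 on the opposite strand and had 147 TPM in replicate 1 and 92.4 TPM in replicate 2, from 1354 and 1289 counts. AC119228.1, the antisense gene within Cd274, had a relative log2 ratio of 0.01 between replicates, while Cd274 had 0.71, and the read-based table gave it 237 and 179 TPM. Gm47079, antisense to the 3′ end of Icam1 over 511 bases, had 8.93 and 3.25 TPM. Gm11110, a lincRNA gene that overlaps the start of Tnfsf9 by 618 bases on the other strand, had 18 and 15 counts in the gene table but 170 and 171 in the read-based table. A930007I19Rik, antisense to the end of Pdcd1lg2, had 52 and 51 counts, while Pdcd1lg2 itself had 1 and 0.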
